A study of Homo sapiens with 10 samples.

Results

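The comparison described here set HEK-293 cells transfected with siRNA 1, the first of 2 duplexes directed at the non-coding RNA LOC440173, beside cells transfected with a control siRNA of unrelated sequence, both at 10 nM. Its members were the arrays whose titles name these treatments, 2 per group and 4 of the 10 arrays of the series, and it was described over all 18404 genes measured, with one probe set per gene. HEK-293 is an established human embryonic kidney line that also carries neuronal features. All groups shared the cell line, the medium and the lipid transfection reagent RNAiMax, and total RNA was taken with TRIzol 48 hours after transfection and hybridised as biotin-labelled cRNA to Affymetrix arrays. The other groups, also of 2 arrays each, received the other LOC440173 duplex, siRNA 2, at 10 nM, a duplex directed at PAXIP1-AS1 at 100 nM, or the control siRNA at that dose. Arrays of a group are labelled biological replicates without saying what was repeated, so the p-values measure the spread between these samples, which may be technical.

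An siRNA is a short duplex that guides the Argonaute complex to RNAs paired with its guide strand, which are then cut. Long non-coding RNAs such as LOC440173, now named LINC02893, are transcribed like messenger RNAs but are not known to encode protein. A control siRNA loads the same complex, so that the comparison asks which RNAs change with the sequence of the siRNA rather than with transfection itself. The gene groups below cover amino acid supply, lipid and mitochondrial metabolism, zinc handling, transcription factor families, the cell cycle, cilia, small nucleolar RNAs and the cytoskeleton.

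Levels are log2 RMA values, an intensity scale on which a step of 1 is a 2-fold difference, and differences are siRNA 1 minus control on that scale, with the standard error (SE) of the fit. A gene is written as called, or as having risen or fallen, where limma's p, adjusted by Benjamini-Hochberg over all genes, was under 0.05. Genes named from a list are mostly its largest called changes, so arrays that do not overlap between groups are likely by that choice. Statements below that arrays do not overlap describe the values and add no support to a call. The share of all genes without overlap is not given here. Of 18404 genes 2229 (12.1%) were called higher and 3072 (16.7%) lower (28.8% either way), and the median difference over all genes was 0.05. Among the 9202 genes at or above the median level of 7.66, from which most of the groups below are drawn, 17.2% were called higher and 26.6% lower, 43.8% in all. Falls were larger than rises: 194 genes (1.05%) fell and 19 (0.103%) rose by 2-fold or more, 1.16% together. Array medians lay between 7.06 and 7.12. Without siRNA 1 replicate 1 the fit called 1140 genes higher and 2154 lower, and without siRNA 1 replicate 2 it called 1176 and 2247. Normalizing the arrays between quantiles a second time moved the calls to 2961 higher and 2820 lower, from 42.0% to 51.2% higher. In all, 828 genes called higher and 1894 called lower kept their call in each of the 17 alternatives run, and members said below to hold throughout are among these.

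Markers of HEK-293 cells and their neuronal features lay mostly above the median gene, but PAX2 and KRT8 lay below it on the control arrays. Of 9 such genes 8 were measured, at levels of 6.74 to 11.43, and their summed level was 74.1 and 74.3 on the control arrays and 71.9 and 71.7 on the siRNA 1 arrays, with 1 called higher and 3 lower. Blood markers lay between 3.52 and 6.27 and endothelial markers between 4.63 and 5.81, below the median gene, with 2 of the 4 endothelial genes called higher and none of the 4 blood genes called. The 5 fibroblast markers lay between 3.75 and 8.37, and 1 of them, COL1A1, was called higher. No RMA value is 0, so these levels do not separate faint expression from background. In bulk RNA, fewer cells of a kind and less RNA per cell cannot be told apart.

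The target was lower with its siRNA. LINC02893 had levels of 8.48 and 8.60 with the control and 7.72 and 7.43 with siRNA 1. Both siRNA 1 arrays lay below both controls, and the difference was -0.96 (SE 0.099, limma adjusted p = 0.000305), which left 51.4% of the control level.

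The 25 largest falls and the 20 largest rises, taken from called genes with no overlap between arrays and a mean of at least the median level in the higher group, all kept their call in the 17 alternatives, with adjusted p from 1.93e-06 to 0.00122. Some of them, such as STOX1 and DNAH6, reached that level only in the higher group. The steepest fall was that of CCND2, the D-type cyclin that activates the G1 kinases, with levels of 10.05 and 10.14 with the control and 7.21 and 7.13 with siRNA 1. PFN2, a profilin that supplies actin monomers to growing filaments, stood at 11.07 and 11.11 with the control and 8.10 and 8.27 with siRNA 1. For both genes the replicates lay close together and the groups far apart, so that 13.2% of the control level of CCND2 and 13.3% of that of PFN2 remained (differences of -2.92, SE 0.0693, and -2.91, SE 0.072).

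The other falls had varied roles. NETO2, an auxiliary subunit of kainate-type glutamate receptors, had levels of 11.44 and 11.55 with the control and 9.74 and 9.79 with siRNA 1 and fell by 1.73. The neuropeptide gene GAL went from 10.37 and 10.18 with the control to 8.58 and 8.60 with siRNA 1, a difference of -1.69. GPR50, an orphan relative of the melatonin receptors, fell by 1.56, the receptor tyrosine kinase TYRO3 fell by 1.47 and the microtubule plus-end protein SLAIN1 fell by 1.55. Each of these genes was lower on both siRNA 1 arrays than on either control, as the rule that chose them requires. Among metabolic enzymes, ALDH5A1, the mitochondrial dehydrogenase that ends GABA breakdown, fell by 1.60 (SE 0.0585), and OXCT1, which lets mitochondria use ketone bodies, fell by 1.56 (SE 0.0825). EPAS1, the hypoxia-inducible factor HIF-2 alpha, fell by 1.48, and ATP6AP1, an accessory subunit of the proton pump of lysosomes, fell by 1.52. AK4 and TIMP3 are each read by a second probe set that fell less, AK4 at -0.31 against -1.78 and TIMP3 at -0.40 against -1.53.

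The rises were smaller, led by the interferon-inducible gene IFI35 at 7.28 and 7.29 with the control and 8.64 and 8.66 with siRNA 1. The mitochondrial enzyme HSD17B10, which is also a subunit of mitochondrial RNase P, had levels of 9.81 and 9.75 with the control and 10.88 and 10.91 with siRNA 1 and rose by 1.11 (SE 0.0479). Neither gene's siRNA 1 arrays reached down to its controls, which the rule that chose them also requires. The ephrin receptor EPHA7 rose by 0.95, the interferon regulatory factor IRF2 by 0.97 and MIF4GD, a partner of the histone mRNA-binding protein SLBP, by 1.07. Of 61 genes of the interferon and double-stranded RNA response, 7 were higher and 8 lower (11.5% and 13.1%). Over all genes the shares were 12.1% and 16.7%. DNAH6, a motor of ciliary axonemes, was read by 4 probe sets that rose by 0.70 to 1.20. In the PAXIP1-AS1 comparison, which shares no array with this one, 10 of the 20 rises were also called higher, and 6 of the 25 falls were called lower. That comparison called 2.86% of all genes higher and 1.76% lower, and 461 and 260 of the 9202 genes at or above the median level. The values there were 1.01 for HSD17B10, 1.05 for MIF4GD and 1.19 for the complex I subunit NDUFB5, against 1.30 here. That comparison was made at 100 nM against the control siRNA at 100 nM. It called 850 genes in all (4.62%), and without either array of its own 2 groups between 110 and 187: 117 and 110 without PAXIP1-AS1 siRNA replicates 1 and 2, and 135 and 187 without control replicates 1 and 2 at 100 nM. Without either siRNA 1 array, which changes only the shared estimate of the spread, it called 477.

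**Figure D1:**
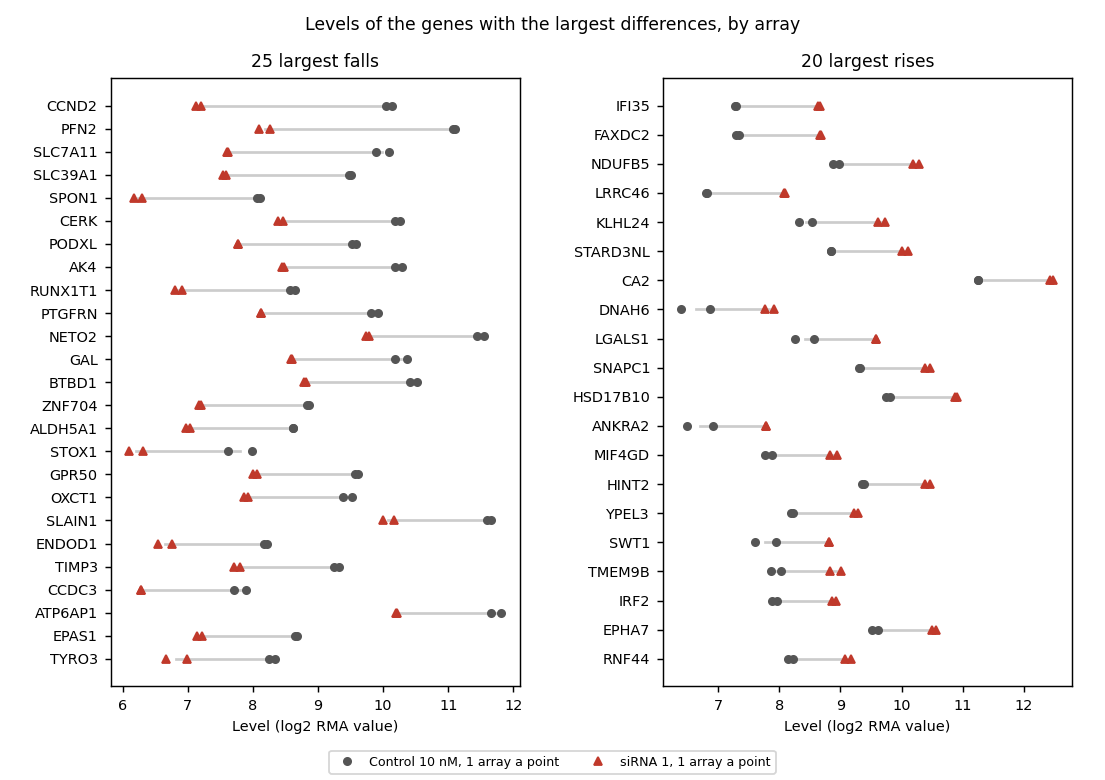
Log2 RMA level of the 25 genes with the largest falls (left) and the 20 with the largest rises (right), 1 point per array, grey circles for the control at 10 nM and red triangles for siRNA 1, with a line between the group means. The siRNA 1 arrays lie apart from the control arrays for every gene, as the rule that chose them requires, and the widest gap is that of CCND2.

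Across 78 gene lists the direction of the calls differed. Of the 67 lists with at least 20 measured members, fatty acid synthesis and the tricarboxylic acid cycle had the largest shares of lower calls, and mitosis the largest share of higher calls. The lists overlap (the cystine transporter SLC7A11 is in 3 of them), and their members were not compared with other genes by a test, so each count stands beside the shares over all genes given above.

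**Figure D2:**
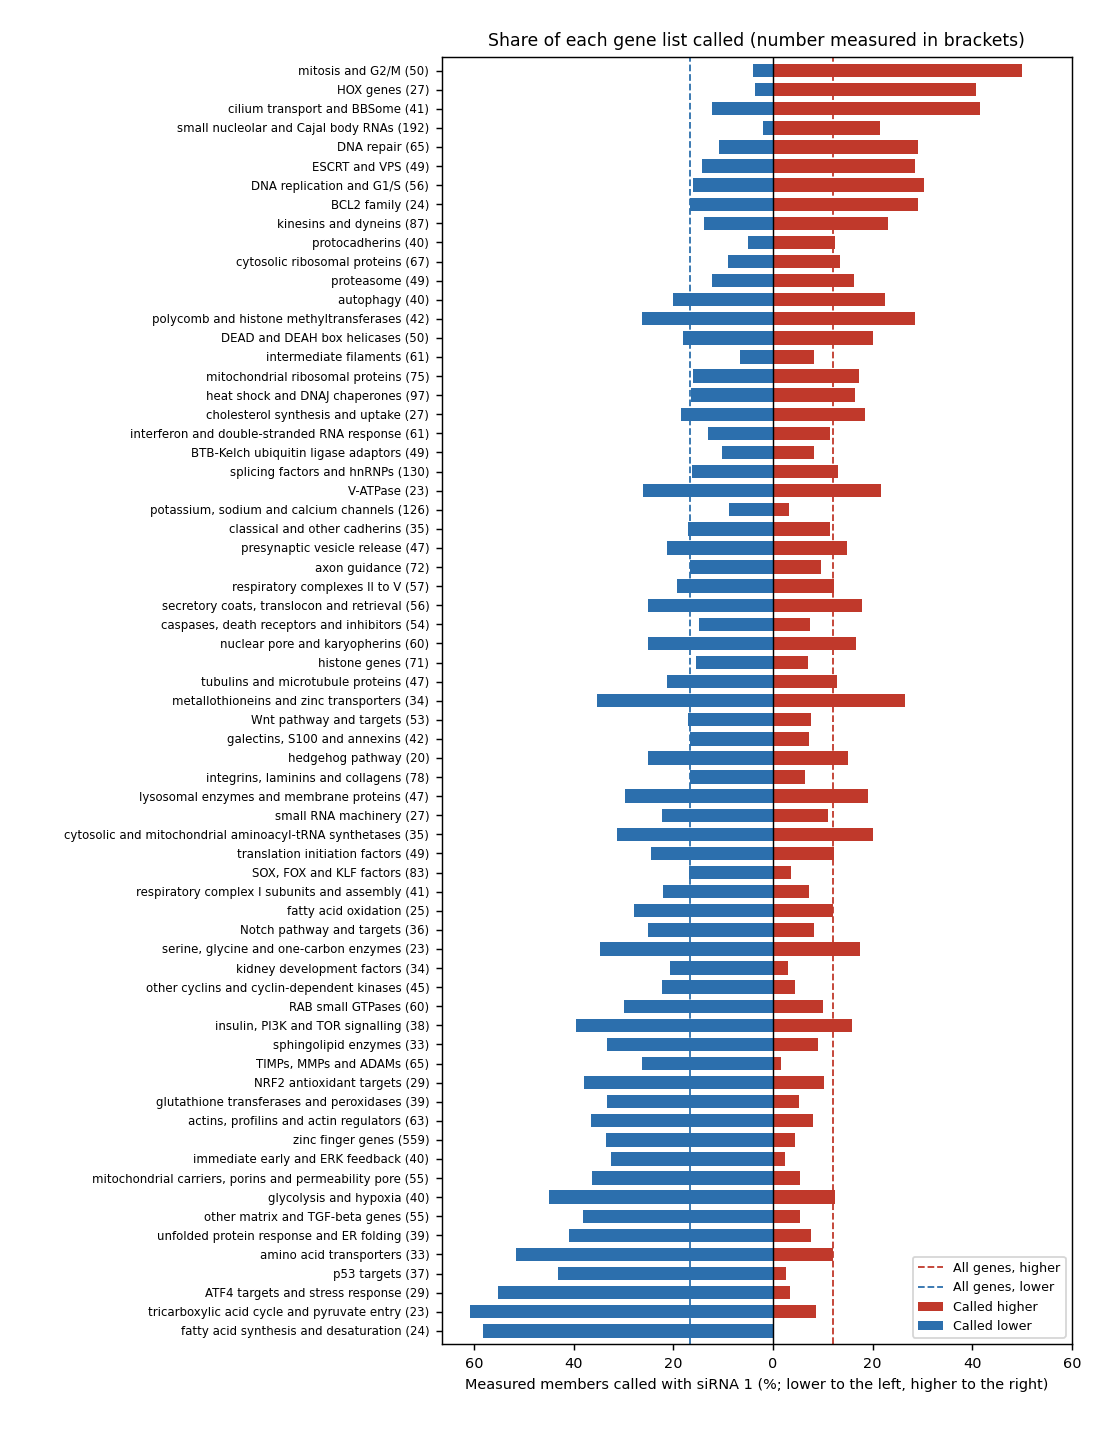
Share of measured members called higher (red, to the right) and lower (blue, to the left) with siRNA 1 against the control at 10 nM, for the 67 lists with at least 20 measured members, with the number measured in brackets. Dashed lines mark all genes, 12.1% higher and 16.7% lower; lists are ordered by the difference between the shares, from mitosis at the top to fatty acid synthesis at the bottom.

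Genes of amino acid supply fell far more often than they rose. ATF4 is the transcription factor that cells raise when amino acids run short, and its targets bring amino acids in, make serine and glycine, and charge transfer RNAs. Over the 4 lists that cover this supply (116 different genes) 48 were called lower and 16 higher, with a median of -0.12 against 0.05 over all genes. Most falls were in the stress targets and the transporters: 16 of 29 ATF4-related genes fell and 1 rose (median -0.25), and 17 of 33 amino acid transporters fell and 4 rose (median -0.28; 2 rises without siRNA 1 replicate 1 and 2 without replicate 2). With dim genes left out, the median of the transporters was -0.43.

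ATF4 is known to bind, with a C/EBP partner, sites that fit the letters TGATGNAA, where N is any base. Windows of 40 bases are shown for 6 genes that fell and hold these letters upstream of the start site, to set the motif beside the values that follow. The sequences are from RefSeq on GRCh38.p14, given 5′ to 3′ on the strand of the gene, with the match in capitals. The match of CHAC1 is on the opposite strand.
ASNS, chr7:97872453-97872492, minus strand, bases -84 to -45 from the start site: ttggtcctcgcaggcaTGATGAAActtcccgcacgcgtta
CHAC1, chr15:40953246-40953285, plus strand, -225 to -186: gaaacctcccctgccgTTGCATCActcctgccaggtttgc
SLC1A5, chr19:46784888-46784927, minus strand, -113 to -74: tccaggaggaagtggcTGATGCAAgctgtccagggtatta
SLC1A3, chr5:36596352-36596391, plus strand, -236 to -197: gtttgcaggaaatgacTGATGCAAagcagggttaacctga
MTHFD1L, chr6:150866341-150866380, plus strand, -145 to -106: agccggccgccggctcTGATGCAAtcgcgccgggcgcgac
ATF3, chr1:212565200-212565239, plus strand, -207 to -168: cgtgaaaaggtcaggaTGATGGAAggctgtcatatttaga
The search covered both strands of the RefSeq promoter entries, 250 bases before to 50 after each start, which 95 of the 116 genes had. The letters were found in 12 of the 36 that were called lower, 1 of the 14 called higher and 9 of the 45 not called, and in 511 of 14230 measured genes (3.59%). Over all 35116 promoters listed the share was 3.62%. Several genes have more than 1 entry, and a gene was counted once if any entry matched. A match is a run of letters and was not tested as a binding site, and ATF4 lists are compiled partly from genes with such sites.

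SLC7A11, which imports cystine in exchange for glutamate, led the transporters with levels of 9.89 and 10.09 with the control and 7.62 and 7.60 with siRNA 1. Its difference was -2.38 (SE 0.078), or 19.2% of the control. The neutral amino acid transporter SLC1A4 had levels of 8.0 and 8.23 with the control and 6.81 and 6.90 with siRNA 1 and fell by 1.27. Both replicates of siRNA 1 were below both controls in each case. The glycine transporter SLC6A9 fell by 1.04, the leucine transporter SLC7A5 fell by 0.98, the taurine transporter SLC6A6 fell by 0.92 and the arginine and lysine transporter SLC7A1 fell by 0.80. The glutamine transporter SLC1A5 fell by 0.61 in its brighter probe set, while its other probe set differed by 0.05. SLC3A2, the heavy chain that carries SLC7A11 and SLC7A5 to the membrane, fell by 0.17, a call lost in 5 alternatives. Of the 4 transporters that rose, SLC7A8 (0.40) and the lysosomal SLC36A1 (0.37) kept their call throughout.

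Among the ATF4 targets, ASNS, which makes asparagine, had levels of 9.89 and 10.00 with the control and 8.91 and 9.04 with siRNA 1. CTH, which makes cysteine from cystathionine, went from 9.20 and 9.44 with the control to 8.07 and 8.08 with siRNA 1. CHAC1, which degrades glutathione, had the widest replicates of the 3, at 8.21 and 7.95 with the control and 7.42 and 7.09 with siRNA 1. None of the 3 overlapped between groups, and the differences were -0.97 (SE 0.0629), -1.25 (SE 0.0871) and -0.83 (SE 0.129). The hormone STC2 fell by 1.03, the translation repressor EIF4EBP1 fell by 0.73 and the stress factor ATF3 fell by 0.67. ATF4 itself fell by 0.48 in the brighter of its 2 probe sets and was 0.44 higher in the other, so that the call was lost with the mean of both (adjusted p = 0.772). DDIT3, encoding the partner factor CHOP, differed by 0.02 (adjusted p = 0.913) and TRIB3, a pseudokinase that ATF4 induces, by 0.00 (0.988). PPP1R15A, the phosphatase subunit that restores translation, was the only one of the 29 called higher (0.31), with 2 called without control replicate 1.

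The serine, glycine and one-carbon enzymes moved in both directions, 8 of 23 lower and 4 higher. In the mitochondrial one-carbon arm, ALDH1L2 had levels of 8.22 and 8.53 with the control and 7.15 and 6.99 with siRNA 1 and MTHFD1L of 10.39 and 10.41 with the control and 9.58 and 9.56 with siRNA 1. SHMT2, which feeds that arm from serine, went the opposite way, from 10.45 and 10.49 with the control to 11.22 and 11.27 with siRNA 1. The groups were apart for all 3 genes, with differences of -1.31, -0.83 and 0.78. PHGDH, the first enzyme of serine synthesis, rose by 0.29, while PSAT1, the second, fell by 0.54. The proline enzyme PYCR1 fell by 0.93 and methionine synthase MTR fell by 0.79.

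Aminoacyl-tRNA synthetases, which load transfer RNAs, were likewise split. Of the 19 cytosolic enzymes 5 were lower and 5 higher (3 higher without siRNA 1 replicate 1), and of the 16 mitochondrial ones 6 were lower (3 without siRNA 1 replicate 2) and 2 higher (1 without siRNA 1 replicate 1 and 1 without replicate 2). MARS1 had levels of 11.11 and 11.10 with the control and 10.50 and 10.50 with siRNA 1 and fell by 0.60; IARS1 fell by 0.48, SARS1 fell by 0.39 and TARS1 fell by 0.36. FARSA, a subunit of the phenylalanine enzyme, rose from 10.73 and 10.60 with the control to 11.44 and 11.51 with siRNA 1, a difference of 0.81 (SE 0.0599). QARS1 rose by 0.31 and KARS1 by 0.30.

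**Figure D3:**
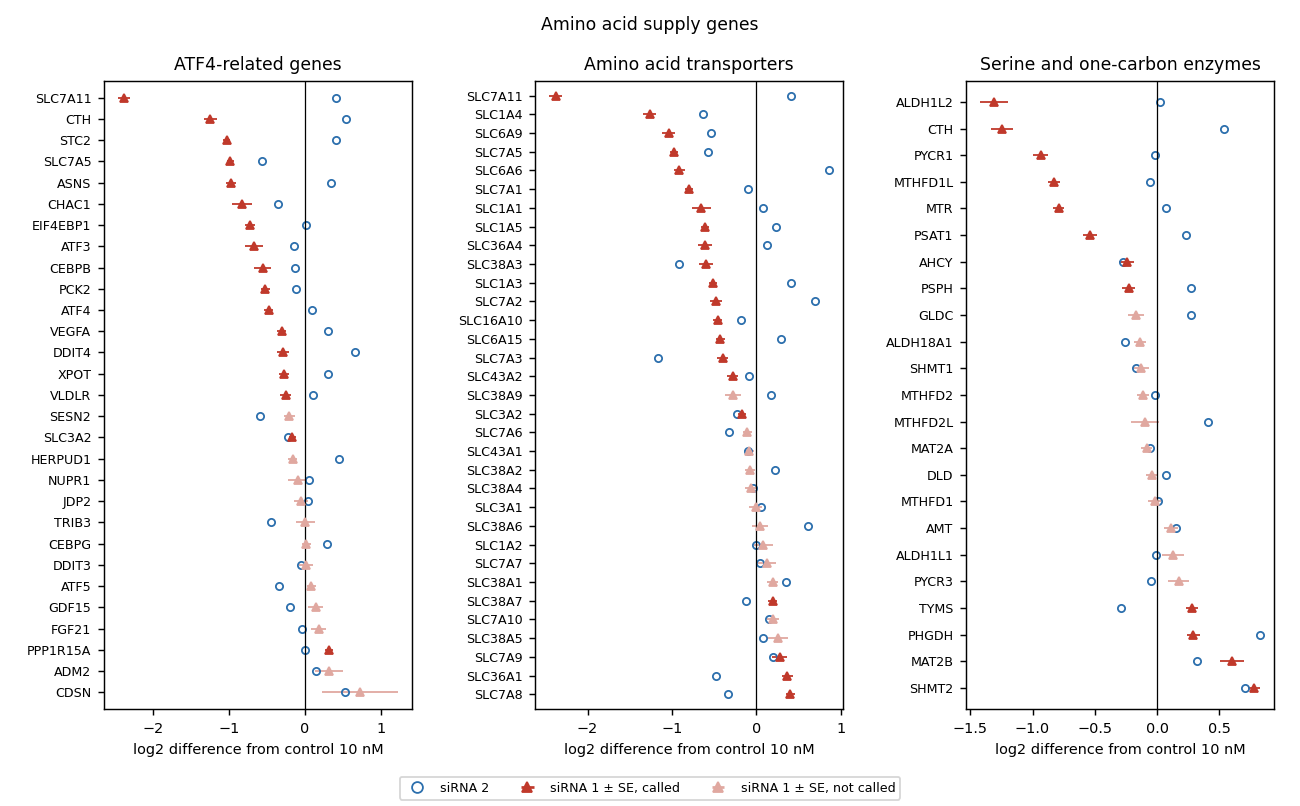
Difference from the control at 10 nM (log2) for every measured ATF4-related gene (29), amino acid transporter (33) and serine or one-carbon enzyme (23). Filled triangles are siRNA 1 with its SE, dark where called; open circles are siRNA 2, which shares the control arrays. The triangles lie mostly left of 0, from SLC7A11 at -2.38, and the siRNA 2 circles lie on both sides.

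Genes of fatty acid synthesis fell without a called rise among them. Of 24 genes for making and desaturating fatty acids 14 were called lower and 0 higher, with a median of -0.29, and 10 of the falls held throughout. FADS1, the desaturase that produces arachidonic acid, had levels of 10.83 and 10.88 with the control and 9.46 and 9.51 with siRNA 1 and fell by 1.37 (SE 0.0556). ACSL1, which activates long-chain fatty acids, went from 8.54 and 8.64 with the control to 7.41 and 7.54 with siRNA 1. The siRNA 1 arrays were the lower pair for both genes. The elongase ELOVL7 fell by 1.10, and ACACA, the rate-limiting carboxylase, fell by 0.31. Fatty acid synthase FASN itself differed by 0.06 (adjusted p = 0.442) and ATP citrate lyase ACLY by -0.13 (0.0755). Genes for cholesterol synthesis and uptake went both ways, with 5 of 27 higher and 5 lower (median 0.04). Among 33 sphingolipid enzymes 11 fell and 3 rose: ceramide kinase CERK had levels of 10.26 and 10.19 with the control and 8.38 and 8.47 with siRNA 1, the lyase SGPL1 that ends sphingosine breakdown fell by 1.01 and the lysosomal ceramidase ASAH1 fell by 0.66. None of the 3 rises held throughout, and 0, 1 or 0 were left without siRNA 1 replicate 1, siRNA 1 replicate 2 or control replicate 1.

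In mitochondria, the tricarboxylic acid cycle and the entry of pyruvate had 14 of 23 genes lower and 2 higher (median -0.18). OGDH, the catalytic subunit of the 2-oxoglutarate dehydrogenase complex, had levels of 9.99 and 9.98 with the control and 9.13 and 8.97 with siRNA 1 and fell by 0.93. DLAT, the acetyltransferase core of the pyruvate dehydrogenase complex, had levels of 10.63 and 10.65 with the control and 9.83 and 9.82 with siRNA 1 and fell by 0.81. PDHX, which anchors another subunit to the same core, rose from 9.60 and 9.72 with the control to 10.28 and 10.37 with siRNA 1. Replicates of all 3 genes were closer to each other than to the other group. The pyruvate carrier subunit MPC1 fell by 0.59, aconitase ACO1 fell by 0.64, the cytosolic dehydrogenase IDH1 fell by 0.69 and citrate synthase CS fell by 0.36. Of 55 mitochondrial carriers and pore proteins 20 fell and 3 rose (median -0.14), with no rise left without siRNA 1 replicate 1, siRNA 1 replicate 2 or control replicate 2. Among the falls were the aspartate and glutamate carrier SLC25A13 (-0.74), the NAD carrier SLC25A51 (-0.81) and the folate carrier SLC25A32 (-0.50). Of 41 complex I genes 9 were lower and 3 higher, with 5 lower without siRNA 1 replicate 1.

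Antioxidant genes under the factor NRF2 were lower in 11 of 29 and higher in 3 (median -0.13). Apart from SLC7A11, the sulfiredoxin SRXN1 had levels of 8.98 and 8.96 with the control and 8.18 and 8.26 with siRNA 1 and fell by 0.74. The pentose phosphate enzymes PGD (-0.53), TALDO1 (-0.53) and TKT (-0.32) also fell, and ferritin light chain FTL rose by 0.41. Of 39 glutathione enzymes 13 fell (8 without siRNA 1 replicate 2) and 2 rose (0 without siRNA 1 replicate 1, siRNA 1 replicate 2 or control replicate 1). The largest of these falls were MGST1, a membrane-bound transferase (-1.05), and, after CHAC1, GPX8 (-0.66) and GSTM3 (-0.66).

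Zinc handling changed in its carriers and its buffers in opposite directions. Zinc enters the cytosol through SLC39 (ZIP) transporters, leaves it through SLC30 (ZnT) transporters and is bound by metallothioneins, whose genes the zinc-sensing factor MTF1 switches on through metal response elements. Of 14 SLC39 genes 7 fell and 0 rose, of 10 SLC30 genes 5 fell and 1 rose (2 without control replicate 1), and of 9 metallothioneins 0 fell and 8 rose (median 0.37). The core of the metal response element was searched as TGCACNC or TGCGCNC on both strands in the 250 bases before the start. These stretches of MT2A, MT1X and SLC30A1 are shown because all 3 genes are known for such elements while their levels moved apart (RefSeq, GRCh38.p14, on the strand of the gene, matches on both strands in capitals).
MT2A, chr16:56608334-56608583, plus strand: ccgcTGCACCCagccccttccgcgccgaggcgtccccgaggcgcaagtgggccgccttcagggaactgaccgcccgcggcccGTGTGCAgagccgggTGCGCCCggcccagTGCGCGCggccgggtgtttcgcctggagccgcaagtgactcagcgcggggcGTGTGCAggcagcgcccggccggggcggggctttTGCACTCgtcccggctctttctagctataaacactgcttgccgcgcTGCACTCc
MT1X, chr16:56682220-56682469, plus strand: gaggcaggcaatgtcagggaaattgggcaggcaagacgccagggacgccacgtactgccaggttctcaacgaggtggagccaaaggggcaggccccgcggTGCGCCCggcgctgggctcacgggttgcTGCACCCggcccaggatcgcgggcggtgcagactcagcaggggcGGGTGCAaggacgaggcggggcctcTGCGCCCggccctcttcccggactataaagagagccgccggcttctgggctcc
SLC30A1, chr1:211579162-211579411, minus strand: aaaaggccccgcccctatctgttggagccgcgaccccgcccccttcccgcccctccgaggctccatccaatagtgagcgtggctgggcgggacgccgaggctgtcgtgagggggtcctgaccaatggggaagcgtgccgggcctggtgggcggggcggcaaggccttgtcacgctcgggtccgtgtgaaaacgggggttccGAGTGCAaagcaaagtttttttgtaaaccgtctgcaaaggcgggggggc
MT2A held 7 matches, MT1X 4 and SLC30A1 1. The letters occurred in all 4 metallothioneins that had a promoter entry and in 10 of 21 zinc transporters (47.6%), against 5060 of 14230 measured genes (35.6%), and 3 or more matches in 1.58% of all promoters.

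SLC39A1, a zinc importer of the surface membrane, had levels of 9.48 and 9.50 with the control and 7.59 and 7.54 with siRNA 1, and its difference of -1.92 (SE 0.0567) was the fourth largest fall. SLC39A10 went from 10.22 and 10.26 with the control to 8.96 and 9.04 with siRNA 1, a difference of -1.24. The exporter SLC30A1 had levels of 8.31 and 8.29 with the control and 7.66 and 7.68 with siRNA 1. In all 3 the siRNA 1 replicates agreed to within 0.1 and lay below the controls. SLC39A7, which releases zinc from the endoplasmic reticulum, fell by 0.80, and the manganese and zinc importer SLC39A8 fell by 0.48. Of the 12 transporter falls 11 held throughout, as did the rise of SLC30A6 (0.33).

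MT1F had levels of 9.72 and 9.56 with the control and 10.41 and 10.50 with siRNA 1, and MT2A, the brightest of the family, of 11.26 and 11.30 with the control and 11.74 and 11.69 with siRNA 1. Both siRNA 1 arrays were above both controls for each gene, with differences of 0.82 (SE 0.0762, adjusted p = 0.000181) and 0.44 (SE 0.0566, adjusted p = 0.000906), and these 2 calls held throughout. The other calls were MT1H (0.48), MT1G (0.47), MT1B (0.37), MT1M (0.34), MT1E (0.33) and MT1X (0.25). Only 3 of the 8 rises were called without siRNA 1 replicate 1, 3 without siRNA 1 replicate 2 and 3 without control replicate 2. Metallothionein genes are near-identical copies, so a probe set may read several of them and the 8 rises may not be independent. MTF1 itself differed by 0.05 (adjusted p = 0.599). With siRNA 2, against the same control arrays and with 12.5% of all genes called higher and 17.4% lower (30.0% in all), 0 of the 9 metallothioneins were called higher and 2 lower, MT1F at -0.99. In the PAXIP1-AS1 comparison 3 were called higher.

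Zinc finger genes fell in large number. They encode DNA-binding proteins, and many of those on chromosome 19 lie in tandem clusters and carry a KRAB domain that recruits the corepressor TRIM28 to transposable elements. Of 559 measured genes 187 fell and 25 rose, with a median of -0.14 against 0.05 over all genes. Of the 264 at or above the median level 103 fell and 16 rose (6, 4 or 10 without siRNA 1 replicate 1, siRNA 1 replicate 2 or control replicate 2). Without siRNA 1 replicate 1 the falls among the 559 were 121, and without siRNA 1 replicate 1, siRNA 1 replicate 2 or control replicate 2 the rises were 8, 6 or 12. A division by chromosome, chosen after the values were seen, gave 113 lower and 3 higher of 246 on chromosome 19 (median -0.27) and 74 lower and 22 higher of 313 elsewhere (median -0.05). The 1063 other genes on chromosome 19 had 78 lower and 147 higher, with a median of 0.11; the rises were 67 or 65 without siRNA 1 replicate 1 or 2 and 246 or 64 without control replicate 1 or 2. Of the 246 genes 193 were below 0. Without siRNA 1 replicate 1, siRNA 1 replicate 2 or control replicate 2 the count of lower calls among the 246 was 73, 75 or 75, and 60 of them held throughout. The rises were 1 without any one of these arrays and 8 without control replicate 1. After a second quantile normalization 115 of the 246 were lower and 7 higher. Elsewhere the falls were 48 without siRNA 1 replicate 1, and the rises 7, 5 or 11 without siRNA 1 replicate 1, siRNA 1 replicate 2 or control replicate 2.

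On chromosome 19, ZNF708 had levels of 8.06 and 8.40 with the control and 6.96 and 7.0 with siRNA 1. ZNF649 went from 8.36 and 8.66 with the control to 7.42 and 7.48 with siRNA 1, and the brighter ZNF146 from 10.57 and 10.68 with the control to 9.79 and 9.70 with siRNA 1. The control replicates of ZNF708 and ZNF649 were wider apart than those of ZNF146, and no siRNA 1 array reached a control array in any of the 3. Their differences were -1.25 (SE 0.127), -1.06 (SE 0.0989) and -0.88 (SE 0.0714). ZNF134 fell by 1.07 and ZNF100 fell by 1.05. On other chromosomes, ZNF704 fell by 1.65 and ZNF678 fell by 0.97, with -1.25 in its second probe set. By symbol, 177 of 480 ZNF genes fell (112 or 117 without siRNA 1 replicate 1 or 2), against 7 of 36 ZBTB genes, 0 of 19 ZSCAN genes and 0 of 7 ZKSCAN genes. The clustered genes share much sequence, so a probe set may read more than 1 of them, which makes single genes uncertain. With siRNA 2, 14 of the 246 genes on chromosome 19 were called lower and 32 higher, a comparison that shares the control arrays; in the PAXIP1-AS1 comparison 4 were lower and 0 higher.

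**Figure D4:**
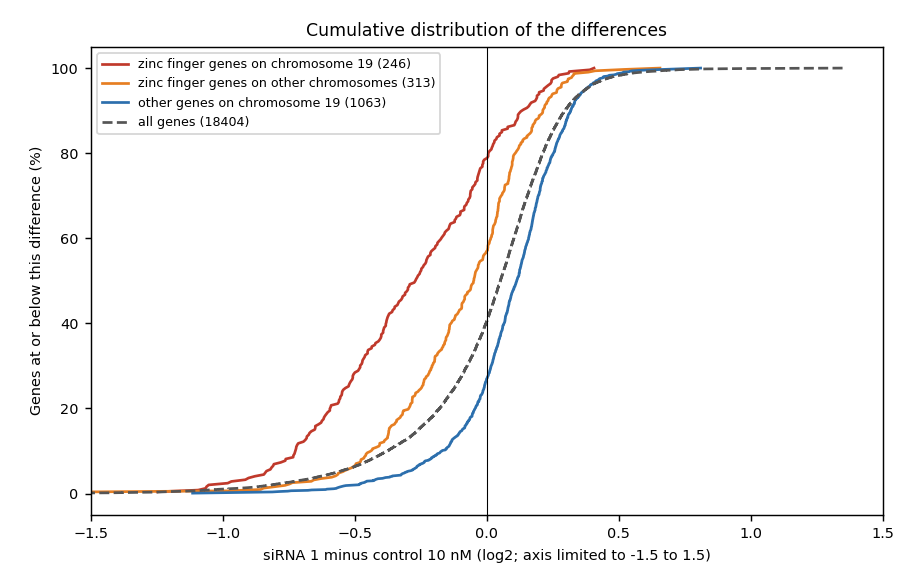
Cumulative share of genes (%) at or below each difference between siRNA 1 and the control at 10 nM (log2, axis limited to -1.5 to 1.5), for zinc finger genes on chromosome 19 (246), zinc finger genes elsewhere (313), other genes on chromosome 19 (1063) and all genes (18404). The curve of the chromosome 19 zinc finger genes lies to the left of the others, with a median of -0.27 against 0.11 for their chromosome 19 neighbours.

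HOX genes, the homeobox factors that set position along the body axis and in the developing kidney, rose more often than they fell. Of 27 measured 11 were called higher and 1 lower (median 0.22), with 7 rises left without siRNA 1 replicate 2. The rises lay in 3 clusters, 4 of 10 HOXB, 4 of 7 HOXC and 3 of 9 HOXD genes, and the 1 measured HOXA gene was not called. Without siRNA 1 replicate 2 they were 4, 2 and 1. HOXB6 had levels of 8.96 and 8.92 with the control and 9.64 and 9.56 with siRNA 1 and HOXC13 of 8.25 and 8.23 with the control and 8.82 and 8.88 with siRNA 1. HOXB9 went the other way, from 11.79 and 11.71 with the control to 11.10 and 11.22 with siRNA 1. The groups did not overlap for these 3 genes, whose differences were 0.66 (SE 0.0515), 0.61 (SE 0.0658) and -0.59 (SE 0.0598). HOXB8 rose by 0.48, HOXB5 by 0.46 and HOXD8 by 0.39. With siRNA 2, 8 HOX genes were higher and 5 lower, among them HOXB5 at -0.37, and in the PAXIP1-AS1 comparison 6 were higher and 0 lower.

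**Figure D5:**
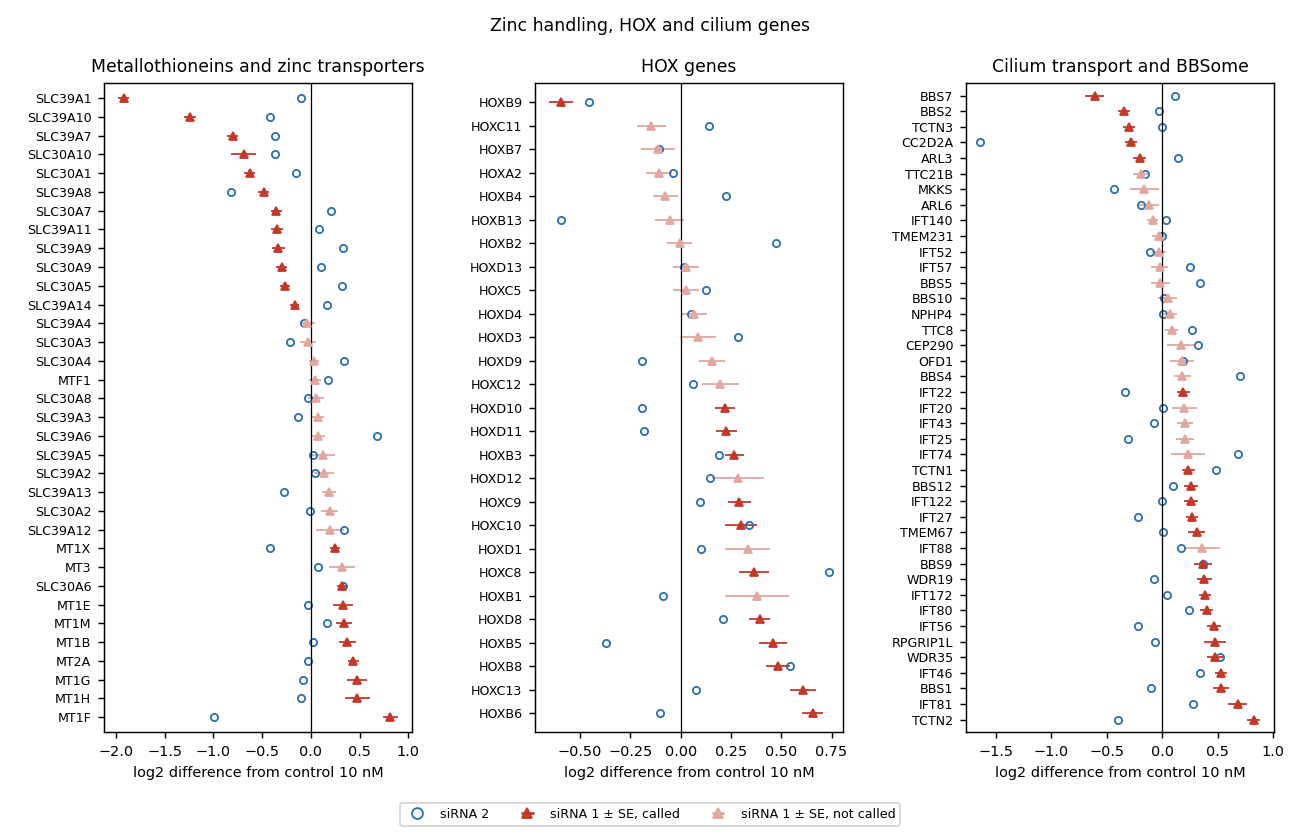
Difference from the control at 10 nM (log2) for every measured member of the metallothionein and zinc transporter list (34, with MTF1), the HOX list (27) and the cilium list (41). Filled triangles are siRNA 1 with its SE, dark where called; open circles are siRNA 2, which shares the control arrays. Transporters lie to the left down to SLC39A1 at -1.92, metallothioneins to the right up to MT1F at 0.82, and most called HOX and cilium genes to the right.

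The cell cycle machinery moved in different directions at its different steps. D-type cyclins with CDK4 and CDK6 start the cycle by disabling RB1. Of the 14 genes of this step 7 fell and 2 rose; the rises were 1 without siRNA 1 replicate 1, siRNA 1 replicate 2 or control replicate 2. After CCND2, CCND3 fell from 9.78 and 9.73 with the control to 8.54 and 8.57 with siRNA 1 and CDK6 from 8.98 and 9.16 with the control to 8.02 and 8.06 with siRNA 1. The inhibitor CDKN1B (p27) rose from 8.94 and 8.95 with the control to 9.46 and 9.36 with siRNA 1, while CDKN1A (p21) fell by 0.39 and RB1 fell by 0.31. Both siRNA 1 arrays were on one side of both controls in all these genes.

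Genes of DNA replication were higher in 17 of 56 and lower in 9 (median 0.12). The clamp PCNA rose by 0.31, its loader subunit RFC2 by 0.35, the flap nuclease FEN1 by 0.30 and the histone mRNA-binding protein SLBP by 0.42. Among the 9 falls (5 without siRNA 1 replicate 2 and 5 without control replicate 2) were factors that load and start the replicative helicase. GINS2 went from 12.05 and 12.14 with the control to 11.43 and 11.41 with siRNA 1, CDC45 fell by 0.62 and the loader CDC6 fell by 0.53. Of the helicase itself MCM7 rose by 0.55, while MCM6 fell by 0.26, a call lost in 4 alternatives. With siRNA 2, 6 of the 56 were higher and 29 lower; PCNA stood at -0.36 and GINS2 at -0.41.

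Mitotic genes were higher in 25 of 50 and lower in 2 (median 0.21), but only 11, 12 or 15 of the rises were called without siRNA 1 replicate 1, siRNA 1 replicate 2 or control replicate 1. CDC20, which activates the anaphase-promoting complex, had levels of 11.32 and 11.32 with the control and 11.83 and 11.81 with siRNA 1. The phosphatase CDC25C rose by 0.53, cyclin B1 (CCNB1) by 0.45 and topoisomerase TOP2A by 0.37. The 2 falls were larger than any of these rises. SPC24, a kinetochore subunit of the NDC80 complex, went from 9.68 and 9.70 with the control to 8.57 and 8.58 with siRNA 1 and the phosphatase CDC25A from 10.51 and 10.53 with the control to 9.67 and 9.77 with siRNA 1. For CDC20, SPC24 and CDC25A the replicates differed by at most 0.1. Of 65 DNA repair genes 19 rose and 7 fell, with 11, 8 or 10 rises left without siRNA 1 replicate 1, siRNA 1 replicate 2 or control replicate 1. PALB2, which brings BRCA2 to BRCA1, rose by 0.42 and BRCA1 by 0.35; the Fanconi gene FANCC fell by 0.85 and the excision repair helicase ERCC2 fell by 0.74.

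Genes of the primary cilium rose more often than they fell. Intraflagellar transport (IFT) trains carry cargo along the cilium, the BBSome links membrane proteins to them, and a transition zone gates the base. Of 41 genes 17 rose and 5 fell (median 0.20), with 10 rises left without siRNA 1 replicate 2. By part, 10 of 19 IFT genes rose and 0 fell (1 without control replicate 1). IFT81 had levels of 7.77 and 7.88 with the control and 8.60 and 8.41 with siRNA 1 and IFT46 of 10.75 and 10.84 with the control and 11.31 and 11.34 with siRNA 1. TCTN2, a transition zone protein, had levels of 9.57 and 9.66 with the control and 10.43 and 10.46 with siRNA 1, the largest rise of the list at 0.82 (SE 0.0572). Arrays of the 2 groups did not overlap in these genes. Among BBSome and related genes 3 of 11 rose (1 without siRNA 1 replicate 2 and 1 without control replicate 1) and 2 fell, with BBS1 at 0.53 and BBS7 at -0.61. DYNC2LI1, a light intermediate chain of the motor that returns IFT trains, rose by 0.71. With siRNA 2, 11 of the 41 were higher and 7 lower, TCTN2 at -0.40 and the transition zone gene CC2D2A at -1.64, against -0.28 with siRNA 1.

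Many small nucleolar RNAs guide the chemical modification of ribosomal RNA, and most lie within introns of host genes. The list also holds Cajal body RNAs (SCARNA), and its median difference was 0.06, against 0.05 over all genes. Of 192 measured 41 rose and 4 fell, with 21 or 27 rises left without siRNA 1 replicate 1 or 2 and 1, 1 or 2 falls without siRNA 1 replicate 1, siRNA 1 replicate 2 or control replicate 2. The rises comprised 23 of 115 SNORD genes (13, 15 or 14 without siRNA 1 replicate 1, siRNA 1 replicate 2 or control replicate 1), 14 of 61 SNORA genes (6 or 9 without siRNA 1 replicate 1 or 2) and 4 of 16 SCARNA genes (2 without siRNA 1 replicate 1). SNORD15A had levels of 9.20 and 9.16 with the control and 9.91 and 9.74 with siRNA 1 and SNORA21 of 9.92 and 9.87 with the control and 10.47 and 10.33 with siRNA 1. Both siRNA 1 arrays were above both controls for these genes, whose differences were 0.65 (SE 0.0848) and 0.50 (SE 0.0586). SNORD96A rose by 0.56 and SNORD52 by 0.53, while SNORA74A fell by 0.46. The 40 SNORD115 and SNORD116 genes in the list had 1 rise and 0 falls (median -0.01). Where their probes also read the unspliced host transcript, the small RNA and its host cannot be told apart. With siRNA 2, 4 were higher and 24 lower.

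Actin genes, with PFN2 among them, and genes of the protease inhibitor TIMP3's group fell more often than they rose. Of 63 actin genes 23 fell and 5 rose; without siRNA 1 replicate 1 or 2 the falls were 15 in each case and the rises 2, and without control replicate 2 the rises were 3. LIMA1, which cross-links actin filaments, went from 9.82 and 9.84 with the control to 8.68 and 8.71 with siRNA 1, and the formin DIAPH1 from 9.37 and 9.44 with the control to 8.52 and 8.62 with siRNA 1. Neither gene overlapped between the groups. Moesin MSN fell by 0.68 and SRF, the transcription factor of many actin genes, fell by 0.57; WASL, which activates the ARP2/3 complex, rose by 0.46. Among secreted and membrane proteases and their inhibitors 17 of 65 fell and 1 rose, including 11 of 38 ADAM and ADAMTS genes with 0 rises. Without control replicate 1, 4 ADAM and ADAMTS genes and 5 of the 65 were called higher. ADAMTS1 fell by 0.81, ADAM23 fell by 0.74 and ADAM15 fell by 0.72. Their median was 0.03, near that of all genes, and -0.47 with dim genes left out.

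The podocyte list, after the kidney cells that express podocalyxin, had 8 of 19 genes lower and 0 higher, with 5 falls left without siRNA 1 replicate 1 and 5 without replicate 2. PODXL had levels of 9.58 and 9.53 with the control and 7.77 and 7.77 with siRNA 1 and its relative PODXL2 of 9.36 and 9.27 with the control and 8.52 and 8.57 with siRNA 1. Replicates lay within 0.1 of each other. The podocyte phospholipase PLCE1 fell by 0.86 and the kidney transcription factor WT1 fell by 0.56. Among matrix genes, the peroxidase PXDN fell by 1.36, fibulin FBLN5 fell by 1.22 and nidogen NID1 fell by 1.03; TGFBR3, a TGF-beta co-receptor, rose by 0.41 and the inhibitor of differentiation ID3 by 0.49.

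Signalling and secretory genes gave further falls. In insulin and PI3K signalling 15 of 38 fell and 6 rose. IGFBP2, which binds insulin-like growth factors, had levels of 9.98 and 9.77 with the control and 8.60 and 8.62 with siRNA 1. PIK3R3, a regulatory subunit of PI3-kinase, went from 9.85 and 9.93 with the control to 8.67 and 8.66 with siRNA 1, and the receptor IGF1R from 10.27 and 10.26 with the control to 9.51 and 9.40 with siRNA 1. All siRNA 1 values were below the controls. PIK3R1 fell by 0.77 and the insulin receptor INSR fell by 0.46, while of the 6 rises FOXO4 (0.40) alone held throughout, with 1 rise left without siRNA 1 replicate 1, siRNA 1 replicate 2 or control replicate 2. In the unfolded protein response 16 of 39 fell and 3 rose. The membrane-bound factor CREB3L2 fell by 0.90, the disulfide isomerase PDIA6 fell by 0.76, XBP1 fell by 0.54 and the chaperone HSPA5 (BiP) fell by 0.47; SYVN1, the ligase that clears misfolded proteins, rose by 0.51.

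Membrane traffic went both ways. Of 49 ESCRT and VPS genes 14 rose (9 without siRNA 1 replicate 2) and 7 fell (4 without siRNA 1 replicate 1). The ATPases that disassemble ESCRT filaments both rose, VPS4B from 7.96 and 8.14 with the control to 9.03 and 8.94 with siRNA 1 and VPS4A by 0.78, while VPS36 fell by 0.58. Of 60 RAB GTPases 18 fell and 6 rose, with RAB15 at -1.24 and RAB9A at 0.80, and 3 rises were left without siRNA 1 replicate 2.

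Of the large cellular machines, cytosolic ribosomal proteins, the proteasome and splicing factors had calls in both directions, to be read against the 17.2% higher and 26.6% lower among genes at or above the median level, where 60, 42 and 114 of their genes lie. Of 67 cytosolic ribosomal proteins 9 were higher and 6 lower (median 0.06), of 130 splicing factors 17 and 21 (median -0.01), and of 49 proteasome genes 8 and 6 (median 0.07). Without siRNA 1 replicate 1, siRNA 1 replicate 2 or control replicate 2, the ribosomal counts were 3, 4 or 4 higher and 1, 2 or 2 lower, and lower calls in the proteasome 1, 1 or 2. Higher calls in the proteasome were 4 or 3 without siRNA 1 replicate 1 or 2, and among splicing factors 7 or 8. Of 126 potassium, sodium and calcium channels 4 were higher and 11 lower, and only 17 of the 126 lie at or above the median level. Without control replicate 1, 20 channels were higher and 8 lower, and without siRNA 1 replicate 1, siRNA 1 replicate 2 or control replicate 2 the higher calls were 2, 1 or 2.

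The direct comparison of siRNA 2 with siRNA 1 called 18.2% of all genes higher with siRNA 2 and 19.0% lower, 37.1% in all. It uses the siRNA 1 arrays again, so its values are set beside those above as a description. Among the 559 zinc finger genes it called 220 higher and 39 lower with siRNA 2, and among the 56 replication genes 7 higher and 34 lower. In the amino acid lists, 17 of 29 ATF4-related genes were higher and 5 lower, and 17 of 33 transporters were higher and 6 lower. Of 192 small nucleolar and Cajal body RNAs 3 were higher and 56 lower, and of 9 metallothioneins 0 were higher and 7 lower. PFN2 stood at 11.19 and 11.30 with siRNA 2, a difference of 3.06 from siRNA 1, and ASNS at 10.25 and 10.30, a difference of 1.31. For both genes the siRNA 2 arrays lay above the siRNA 1 arrays and also above the controls. LINC02893 differed by -0.93, at 6.71 and 6.59 with siRNA 2. Of the 45 genes with the largest falls and rises, which were chosen on the siRNA 1 arrays, 40 were called in the direct comparison. A high count is likely by that choice, since the same siRNA 1 arrays enter both comparisons. Among the 9202 genes at or above the median level, the direct comparison called 2752 higher and 2605 lower. Some falls were also seen with siRNA 2. CCND2 (-1.80), CDK6 (-1.0), SPON1 (-1.40) and CERK (-1.43) were below the same control arrays, each with an adjusted p under the threshold. These genes are named because they were also lower with siRNA 2. SLC7A11, BTBD1 and ATP6AP1, also among the largest falls, were called higher with siRNA 2. How many of the largest falls or rises kept their direction with siRNA 2 is not given here. Among the 9202 genes at or above the median level, siRNA 2 against the control called 1855 higher and 2477 lower. The named genes therefore do not show how far the 2 siRNAs agree.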

How the data were processed

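Per the submitters' processing notes, the authors summarised the arrays with RMA and used limma, with no versions; the array's genome build is not given in the sources used here. The deposited values are log2 intensities per probe set, 1 column per array. Of 32321 probe sets 19158 had 1 gene symbol, 1388 several and 11775 were not listed; several-gene and unlisted sets were left out. For each of the 18404 genes the probe set with the highest mean over the 10 arrays was kept (637 genes had a choice). Array number limits the precision.

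All 10 arrays were fitted by group with limma 3.58.1 (R 4.3.3; 5 residual and 2.87 prior degrees of freedom), with empirical Bayes and Benjamini-Hochberg adjustment over all genes. On simulated data with 200 of 18404 genes changed, 70.8% of 1.5-fold and 92.8% of 2-fold changes were called, and 3.3% of calls were false. The simulated noise was independent between arrays and few genes were changed, whereas 28.8% of genes were called here. These rates therefore need not hold for this comparison. Named genes were the target and its neighbours, the 25 largest falls and 20 largest rises, and up to 6 called members each way per list. ACACA, ACLY, ATF4, DDIT3, FASN, FEN1, INSR, MCM6, MT1E, MT1X, MTF1, PCNA, RFC2, SLC1A3, SLC1A5, SLC25A32, SLC30A6, SLC3A2, SNORA21, TKT, TOP2A, TRIB3, ZNF146 and ZNF678 fall outside that rule and were chosen after their values were seen. The gene lists were chosen with earlier results of these data known. The replicate numbers were not used as pairs, since the labels do not say what a number shares and each group has only 2. Deviations of same-numbered arrays correlated across genes at 0.0677 to 0.0904 where siRNA 1 was involved and at 0.293 to 0.529 between the other groups. The array titles name no processing batch, so any difference in handling between siRNA 1 and control arrays could not be told apart from the siRNA. Python 3.11.15 with pandas 2.3.3, numpy 2.4.6 and matplotlib 3.10.9 made the tables and figures.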

Additional observations from a re-analysis of the deposited data

Results flagged for a closer look

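For 6 genes from the largest falls and rises, the 2 siRNAs against LOC440173 gave opposite calls against the same control arrays. The direct comparison of the 2 siRNAs was called as well. These 6 are not a full count, since MT1F, described above, also had opposite calls. The siRNA 2 minus siRNA 1 difference was 2.79 for the cystine transporter SLC7A11. It was 2.23 for the BTB adaptor BTBD1 and 1.73 for the proton pump subunit ATP6AP1. It was -1.73 for IFI35, -1.90 for FAXDC2 and -1.74 for YPEL3. The direct comparison shares arrays with the one that chose these genes, and no explanation was tested.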

How the results depend on the processing

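Against 5301 called genes with siRNA 1, fitting the compared groups alone gave 3494, adding a 1.5-fold minimum gave 1044, and leaving out 1 array gave 3294 to 5663, the lowest without an siRNA 1 array. Other settings kept the count within 1.5 times: 5781 after a second quantile normalization, 5250 with the mean of all probe sets, 5343 without dim genes, 5995 with a trended robust prior, 4724 with array weights and 6739 with the replicate block. The labels do not say what a replicate number shares; with the replicate block siRNA 2 against siRNA 1 gave 7777 and siRNA 2 against its control 6329. For siRNA 2 against siRNA 1 (6836) the 1.5-fold minimum gave 1944 and leaving out 1 array gave 5229 to 7152. For siRNA 2 against its control (5512) the compared groups alone gave 2788, the 1.5-fold minimum 1220 and leaving out 1 array 4190 to 5155. The PAXIP1-AS1 comparison (850) gave 1889 without dim genes, 1784 with the trended prior, 1325 with the replicate block, 1544 with array weights, 181 with the compared groups alone, 112 with the 1.5-fold minimum and 110 to 895 without 1 array. Of 780 named genes 558 kept their side of the threshold in each of the 17 alternatives, 222 crossed it in at least 1 and 0 changed direction while called; 22 list medians moved by more than the replicate spread, mostly without dim genes. With 2 arrays per group, smaller differences may be missed. In the simulated data 70.8% of 1.5-fold changes were called, a rate that need not hold here.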

Other observations

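Among motor proteins, which carry cargo along microtubules, 20 of 87 kinesin and dynein genes rose (11 without siRNA 1 replicate 1 and 11 without replicate 2) and 12 fell. DYNLL1, a light chain shared by dynein and many other complexes, had levels of 12.10 and 12.36 with the control and 11.26 and 11.16 with siRNA 1, a difference of -1.02. The neuronal kinesin KIF1A fell by 0.78 and KIF5C fell by 0.62. For these 3 genes both siRNA 1 arrays were below both controls. Outside the D-type step, CCNG1, a p53-induced cyclin, had levels of 12.60 and 12.67 with the control and 11.99 and 11.98 with siRNA 1 and fell by 0.65.

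In the BCL2 family, which sets the threshold for apoptosis, 7 of 24 genes rose (3 and 4 without siRNA 1 replicates 1 and 2) and 4 fell (2 without siRNA 1 replicate 2). The list of 24 also holds the BNIP genes. BNIP2, which is not itself a BCL2 family member, had levels of 8.92 and 9.17 with the control and 7.67 and 7.79 with siRNA 1, the largest change of the list. BNIP3L, a receptor for the removal of mitochondria, rose by 0.40 and BCL2L12 by 0.41. Polycomb and histone methyltransferase genes were split, 12 of 42 higher and 11 lower (7, 6 and 7 lower without siRNA 1 replicate 1, siRNA 1 replicate 2 and control replicate 2). The polycomb ring-finger gene PCGF3 had levels of 9.34 and 9.43 with the control and 8.57 and 8.61 with siRNA 1, with both siRNA 1 arrays below the controls, while the PRC2 partner JARID2 rose by 0.38 and the histone H3 lysine methyltransferase DOT1L by 0.31.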
